A study of Macaca fascicularis with 6 samples.

Results

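The matrix metalloproteinases, their tissue inhibitors and the lysyl oxidases were followed in the left ventricular free wall of cynomolgus monkeys with chronic atrioventricular block, through 10 of the 17941 genes named on the array: MMP2, MMP9, MMP14, TIMP1, TIMP2, TIMP3, TIMP4, LOX, LOXL1 and LOXL2. On the rhesus macaque array, 24 of 52706 probe sets carried 1 of these names in their design description, or in the gene symbol where the design gave none. A probe set is a group of short probes read as 1 signal. By role, 6 probe sets belonged to metalloproteinases, 11 to inhibitors and 7 to lysyl oxidases. One array was run per heart.

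The 2 hearts with block came from animals 2 and 8, taken 8 months after the atrioventricular conduction had been interrupted, and the 4 intact hearts came from the non-operated animals 11, 12, 13 and 14. All were males of 4-6 years, anaesthetised with thiopental sodium before the heart was removed. The animals with block had also been given dl-sotalol repeatedly, and moxifloxacin, and had been anaesthetised for the ablation and for recordings. They were the ones with the most frequent torsade de pointes. Block, drug challenges, these procedures and selection for arrhythmia thus cannot be told apart here. Whole transmural tissue was used, and in such tissue fewer cells of a type and less RNA per cell cannot be told apart.

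Metalloproteinases are secreted or membrane-bound zinc enzymes that cut collagen, gelatin and other matrix proteins and are made as inactive precursors. Tissue inhibitors of metalloproteinases bind them and block the active site. Lysyl oxidases work on the other side of the balance, oxidising lysines of collagen and elastin so that the fibres become cross-linked. In the heart these enzymes are made largely by fibroblasts and are known for their part in remodelling of the interstitium.

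Signals were scaled so that the 2% trimmed mean was the same on every array, and are given as scaled signal. A probe set was tested where the array software had called it Present, meaning above its own mismatch background, on at least 2 of 6 arrays. Of the 24 probe sets, 13 passed, covering 8 of the 10 genes: 1 for metalloproteinases, 9 for inhibitors and 3 for lysyl oxidases. Another 9 were Present on no array. Signals of different probe sets cannot be set against each other, because each has its own probes.

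None of the 13 tested probe sets passed the test in either direction (limma with Benjamini-Hochberg adjustment, adjusted p under 0.05), against 0.0221% of the 22577 probe sets tested on the whole array. At an unadjusted p under 0.05 there was 1 of 13, a LOX probe set that was higher with block, against 3.62% of all tested probe sets in that direction, and 0 lower, against 4.62%. In 2 of the 13, for LOX and TIMP4, both hearts with block lay above all intact hearts, against 8.61% of all tested probe sets, and in none did they lie below, against 9.48%. The median log2 fold change was -0.03 over the 13 probe sets and 0.00 over all tested probe sets.

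Among the proteases, MMP2, the gelatinase that digests denatured and basement membrane collagen, was the one with a testable signal. Its probe set lies at chr20:53750229-53750845 (build Mmul_051212), ending 23 bases before the annotated 3′ end of the gene. The scaled signal was 181 and 364 in block animals 2 and 8, against 262, 360, 316 and 224 in intact animals 11, 12, 13 and 14. The hearts with block thus held both the lowest and the highest value of the 6, and the groups overlapped. The mean was 273 ± 130 with block (SD, n = 2) and 291 ± 59.8 in intact hearts (SD, n = 4). The log2 fold change was -0.16 with a 95% interval of -0.83 to 0.52, that is a fold of 0.898 with bounds of 0.561 and 1.44 (limma adjusted p = 0.914). The second MMP2 probe set, 17689 bases upstream of the 3′ end, was Absent on all arrays.

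MMP9, the gelatinase carried by neutrophils and macrophages, was Absent on all 6 arrays. Its scaled signal was 3.59 and 14.2 in block animals 2 and 8, against 1.61 to 10.4 in intact hearts. Of 10 neutrophil markers examined, 7 were likewise Absent on every array, among them MPO, LTF and S100A9. The other 3 were S100A8, ELANE and CXCR2. ELANE was Present on 2 block and 3 intact arrays, and S100A8 on 1 array of each group. CXCR2 was Present on all arrays at 709 and 859 in block animals 2 and 8, against 435 to 660 in intact hearts. That probe set carries its name through the annotation symbol alone and aligns to chr1:48429786-48440236. Whether it reads CXCR2 was not tested. The summed signal of the 3 markers was 745 and 881 in block animals 2 and 8, against 479 to 679 in intact hearts. It came mostly from that probe set, so it says little about neutrophils. MMP14, the membrane-type protease that activates the MMP2 precursor, had 3 probe sets, of which 1 was called Present, on the array of block animal 8 only. That probe set gave 10.1 and 36.6 in block animals 2 and 8, against 16.5, 10.8, 37.8 and 7.95 in intact animals 11, 12, 13 and 14. The brightest MMP14 probe set, Absent on all arrays, gave 14.8 and 44.0 in block animals 2 and 8. In intact animals 11, 12, 13 and 14 it gave 19.1, 26.6, 37.3 and 50.3, so the groups overlapped. No probe set of MMP9 or MMP14 was Present on at least 2 arrays, so whether either changed was not tested.

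**Figure D1:**
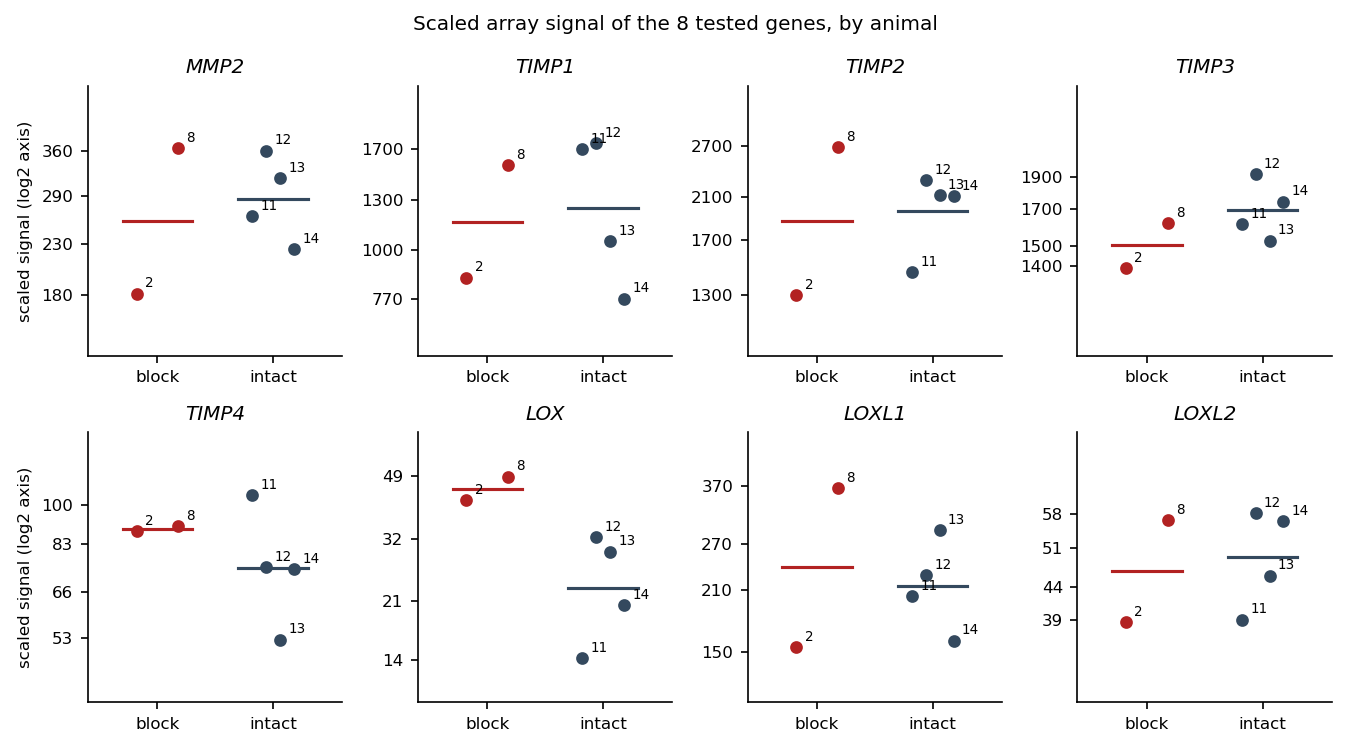
Scaled signal (log2 axis) of the brightest probe set of each of the 8 tested genes, with block hearts on the left and intact hearts on the right; each point is 1 heart marked with its animal number and the line is the mean of the log2 values. In LOX both hearts with block sit above all 4 intact hearts, while in MMP2, TIMP2 and LOXL1 block animal 8 is the highest heart and block animal 2 the lowest.

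TIMP1, a soluble inhibitor that binds MMP9 well, had a scaled signal of 863 and 1556 in block animals 2 and 8, against 1695, 1748, 1045 and 773 in intact animals 11, 12, 13 and 14. Intact hearts alone spanned 2.26-fold, and both hearts with block fell within that span. The probe set lies at chrX:45405878-45407691. The log2 fold change was -0.10 with a 95% interval of -0.92 to 0.72 (limma adjusted p = 0.955). A probe set whose symbol is spelled TIMP-1 was left out: it has no design name and aligns to chromosome 4, not to the X chromosome where TIMP1 lies.

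TIMP2, which both inhibits MMP2 and takes part in its activation with MMP14, was read by 3 probe sets. The brightest gave 1299 and 2692 in block animals 2 and 8, against 1455, 2284, 2124 and 2116 in intact animals 11, 12, 13 and 14. The second gave 136 and 289 in the same hearts with block, against 189, 261, 155 and 216 in the intact ones. In both probe sets block animal 2 was the lowest heart and block animal 8 the highest. Their log2 fold changes were -0.07 and -0.03, with limma adjusted p-values of 0.962 and 0.987. The brightest probe set has no listed position in the genome, and the second aligns 1713 bases past the annotated 3′ end at 75.7% identity. The third, which aligns within the annotated gene at 100% identity, was Absent on every array and was not tested. It gave 47.1 and 54.3 in block animals 2 and 8, against 4.91 to 39.9 in intact hearts. A probe set whose symbol is spelled TIMP-2, at chr16:74112301-74113202, was left out for its spelling and was Absent on every array.

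TIMP3, the inhibitor that stays bound to the matrix, had 5 probe sets on chromosome 10, of which 4 were Present on all arrays. The brightest, at chr10:76785081-76785539, starts 1614 bases past the annotated 3′ end. It gave 1392 and 1623 in block animals 2 and 8, against 1616, 1918, 1528 and 1746 in intact animals 11, 12, 13 and 14. Its log2 fold change was -0.17 with a 95% interval of -0.53 to 0.18 (limma adjusted p = 0.799), the narrowest of the family. The other tested TIMP3 probe sets gave 0.21, 0.09 and -0.10, so the sign differed between probe sets of the same gene while every interval included 0. In all 4 the groups overlapped. The fifth, Present on 1 intact array only, was not tested and gave 31.0 and 20.7 in block animals 2 and 8, against 4.18 to 20.2 in intact hearts.

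TIMP4, the inhibitor with high expression in the heart, was read by 2 probe sets on chromosome 2. The brighter gave 88.2 and 90.4 in block animals 2 and 8, against 105, 74.4, 52.6 and 73.5 in intact animals 11, 12, 13 and 14. Its log2 fold change was 0.27 with a 95% interval of -0.36 to 0.90 (limma adjusted p = 0.824). The other, which starts 3943 bases past the annotated 3′ end, gave 88.0 and 75.7 in block animals 2 and 8, against 75.4, 36.1, 51.7 and 72.4 in the same intact hearts. The groups did not overlap there, but block animal 8 exceeded the highest intact heart by a small margin and block animal 2 was called Absent. The log2 fold change was 0.53 with a 95% interval of -0.20 to 1.26 (limma adjusted p = 0.704).

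LOX, the enzyme that starts the cross-linking of collagen and elastin, had the largest fold change of the 13 probe sets. The tested probe set at chr6:118497098-118497667, 1056 bases past the annotated 3′ end, gave 41.6 and 49.0 in block animals 2 and 8, against 14.2, 32.5, 29.4 and 20.4 in intact animals 11, 12, 13 and 14. Both hearts with block lay above every intact heart. The software called it Present on both block arrays and on 2 of 4 intact arrays, so part of the intact signal was near background. The mean was 45.3 ± 5.22 with block (SD, n = 2) and 24.1 ± 8.35 in intact hearts (SD, n = 4). The fold change was 1.97 with a 95% interval of 1.07 to 3.61, and the log2 fold change 0.98 ± 0.39 (SE). It did not pass the test after adjustment over all probe sets (limma adjusted p = 0.558). The unadjusted limma p was 0.032, and it was 0.053 and 0.058 without intact animals 11 and 14, and 0.072 and 0.14 without block animals 2 and 8. With an offset of 32 added to the signals the log2 fold change was 0.47. The ratio of arithmetic means was 1.47 for the deposited signals and 1.88 for the scaled ones.

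The other LOX probe sets were Absent on all arrays. The one at the annotated 3′ end of the gene gave 1.39 and 2.27 in block animals 2 and 8, against 1.16 to 4.09 in intact hearts, so the groups overlapped. The one near the 5′ end gave 1.39 and 1.22 in block animals 2 and 8, against 6.21 to 12.8 in intact hearts, the opposite direction at signals the software did not call. In both, the deposited signal of animal 2 was 1, the smallest on any array. Shortened RNA raises the signal of a control transcript's 3′ probe set relative to its 5′ one. For GAPDH this ratio was 5.05 and 3.05 in block animals 2 and 8, against 2.17 to 2.65 in intact hearts. The same ratio for ACTB was 11.6 and 8.98 with block, against 7.85 to 10.9 in intact hearts. Of 7 smooth muscle and pericyte markers, 4 (TAGLN, ACTA2, CSPG4 and DES) also lay above all intact hearts in both hearts with block. The share over all tested probe sets was 8.61%. MYH11 and PDGFRB went the other way (log2 fold change -0.40 and -0.10), and RGS5 overlapped (0.10). The summed signal of the list was 16382 and 16319 in block animals 2 and 8, against 12084 to 13520 in intact hearts. Most of it was DES, at 10812 and 10104 with block, so the sum says little about the other markers. The part of RNA length and of these cells in the LOX values was not tested.

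**Figure D2:**
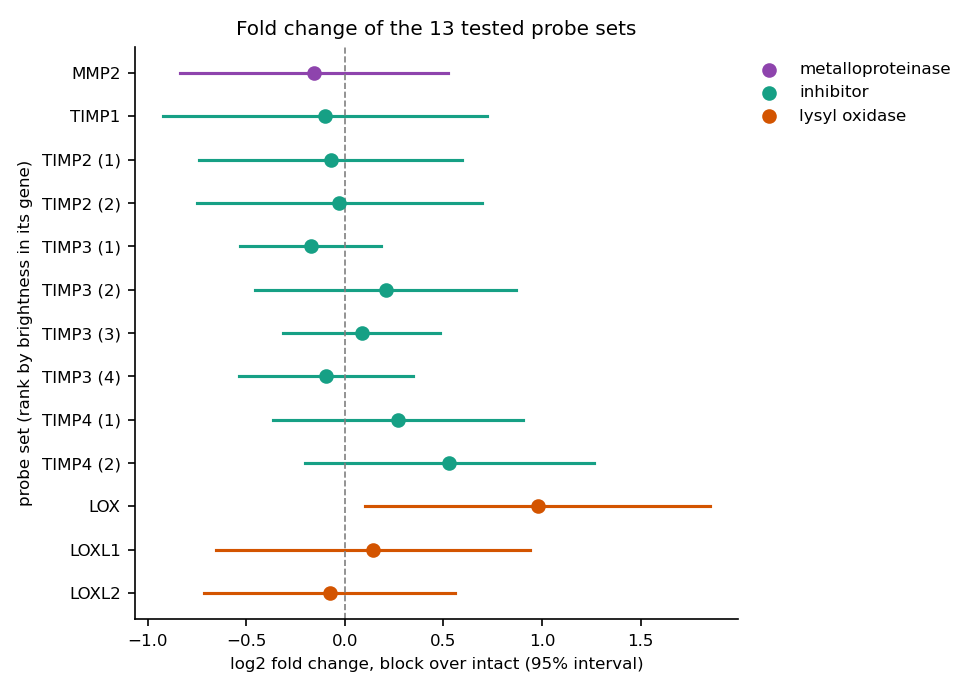
Log2 fold change of block over intact (x axis) for the 13 tested probe sets (y axis, numbered by brightness where a gene has more than 1), with bars for the 95% interval from limma and colours for the role. The interval of LOX, 0.10 to 1.85, is the one that leaves out 0.

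LOXL1, which directs elastic fibre formation, gave 154 and 366 in block animals 2 and 8, against 203, 228, 291 and 160 in intact animals 11, 12, 13 and 14. The hearts with block again held the lowest and the highest value. The log2 fold change was 0.14 with a 95% interval of -0.66 to 0.94 (limma adjusted p = 0.936). LOXL2, which cross-links collagen IV, gave 38.6 and 56.5 in block animals 2 and 8, against 39.0, 58.2, 46.0 and 56.4 in the same intact hearts. Its log2 fold change was -0.08 with a 95% interval of -0.71 to 0.56 (limma adjusted p = 0.957), and its other 2 probe sets were Absent on all arrays. The one across the annotated 3′ end gave 6.96 and 4.17 in block animals 2 and 8, against 8.75 to 31.4 in intact hearts. Both hearts with block thus lay below every intact heart there, at signals the software did not call.

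Animals 2 and 8 stood apart from each other within the block group. Taking each gene by its brightest probe set, block animal 8 was higher than block animal 2 in 8 of 8 genes, against 49.0% of all tested probe sets. In 5 of the 8, namely MMP2, TIMP1, TIMP2, LOXL1 and LOXL2, animal 8 was above and animal 2 below the mean of the intact hearts, which held for 19.3% of all tested probe sets. Over the 13 tested probe sets of the family these counts were 11 and 7. Animal 2 was the higher of the pair in the TIMP3 and TIMP4 probe sets ranked 2 by brightness. In the brightest TIMP4 probe set the margin was small (88.2 in animal 2 and 90.4 in animal 8). The genes share the same arrays and are not independent of each other. The array of animal 2 was the dimmest before scaling, with a trimmed mean of 54.6 against 73.5 to 88.2 on the others. It also had the fewest Present calls (36.0%) and the highest GAPDH ratio of 3′ to 5′ signal (5.05, against 3.05 in animal 8). The part of array brightness and RNA length in these shifts was not tested. The median shift from the intact mean was -0.42 in animal 2 and 0.34 in animal 8 on the log2 scale, against 0.01 and 0.00 over all tested probe sets. LOX and TIMP4 were the 2 genes in which both hearts with block were above the intact mean, and TIMP3 the one in which both were below it. That held for the brightest TIMP3 probe set. In those ranked 2 and 3 both hearts with block were above the intact mean (0.26 and 0.16, and 0.06 and 0.11).

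Cell marker lists also differed between animals 2 and 8, while the cells that make the members were not identified in this tissue. The median shift of 9 fibroblast markers was -0.17 for block animal 2 and 0.25 for block animal 8. Over 6 activated fibroblast markers the same medians were -0.36 and 1.18. In 2 of the 6, FAP and ACTA2, named here after their values were seen, both hearts with block lay above all intact hearts. The share over all tested probe sets was 8.61%, and ACTA2 is also in the smooth muscle list. In the other 4, POSTN, TNC, CTHRC1 and THBS4, animal 2 was below the intact mean and animal 8 above it. FAP, a protease of activated fibroblasts, gave 57.1 and 77.0 in block animals 2 and 8, against 7.76 to 21.8 in intact hearts (log2 fold change 2.27, limma adjusted p = 0.285). The summed signal of the activated fibroblast markers was 1326 and 2261 in block animals 2 and 8, against 1086 to 1356 in intact hearts, while that of the fibroblast markers was 15643 and 22394, against 13765 to 24652. Of these lists, TCF21 and COMP were Absent throughout. For 8 macrophage markers the summed signal was 690 and 1320 with block, against 516 to 780 in intact hearts, with MARCO and FCGR1A Absent throughout. All 10 cardiomyocyte markers were measured, and their median shift was 0.38 in animal 2 and 0.05 in animal 8. For 8 endothelial markers the median shift was -0.17 in animal 2 and 0.04 in animal 8. The part of cell composition in the shifts of the family was not tested.

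**Figure D3:**
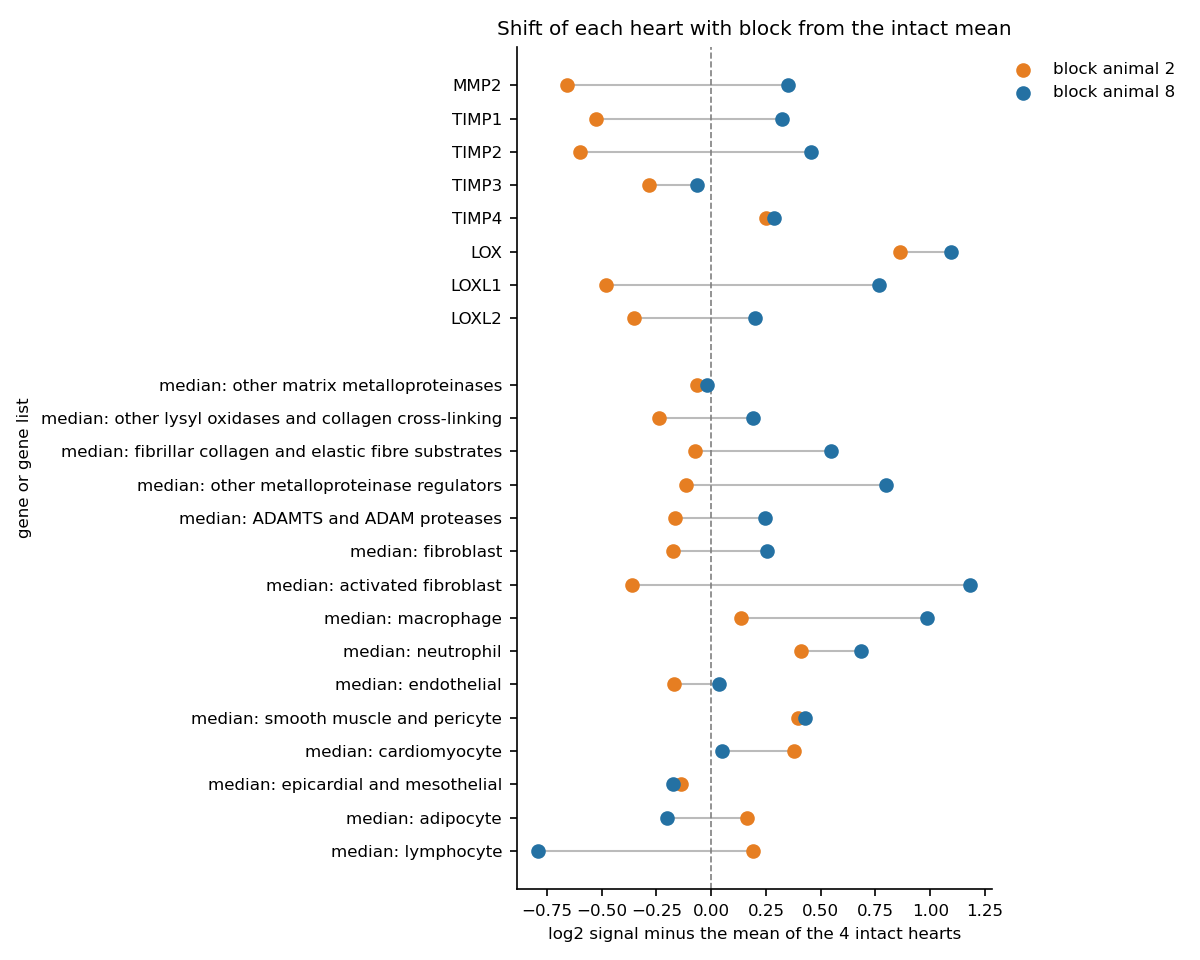
Log2 signal of each heart with block minus the mean of the 4 intact hearts (x axis), for the 8 tested genes by their brightest probe set and, below, as medians of gene lists (y axis). Animal 8 lies to the right of animal 2 in all 8 genes, with LOX right of 0 in both hearts, and the activated fibroblast medians are at -0.36 and 1.18.

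Whether an inhibitor and a protease moved unequally was asked with the log2 difference of TIMP1 and MMP2 within each array. It was 2.25 and 2.10 in block animals 2 and 8, against 2.69, 2.28, 1.73 and 1.79 in intact animals 11, 12, 13 and 14, a difference between groups of 0.05 (exact permutation test over 15 splits, two-sided, p = 1). Whether the cross-linking enzyme moved apart from its substrate was asked in the same way with LOX and COL1A1, the main chain of type I collagen. COL1A1 itself gave 3032 and 4355 in block animals 2 and 8, against 2556, 6468, 3988 and 2864 in intact animals 11, 12, 13 and 14, with a log2 fold change of -0.03 (limma adjusted p = 0.987). The difference of LOX from COL1A1 was larger by 1.01 with block, and both hearts with block lay above all intact hearts (exact permutation test over 15 splits, two-sided, p = 0.0667). That is the smallest p that 2 against 4 hearts can give, so no value could have passed 0.05.

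In 5 lists of other matrix genes, 47 of 66 genes had a tested probe set and none passed the adjusted test, with 4 higher and 2 lower at an unadjusted p under 0.05, against 3.62% and 4.62% of all tested probe sets. Both hearts with block lay above all intact hearts in 2 of the 47 and below them in 3, against 8.61% and 9.48%. Of 20 other metalloproteinases, 9 were Absent throughout, among them the collagenases MMP1, MMP8 and MMP13, and 7 were tested. In 3 of these both hearts with block were below all intact hearts, against 9.48% of all tested probe sets. MMP11 gave 55.9 and 52.1 in block animals 2 and 8, against 101, 85.1, 81.9 and 74.4 in intact animals 11, 12, 13 and 14 (log2 fold change -0.65, limma adjusted p = 0.477). MMP15 and MMP26 were Present in 2 intact hearts and in neither heart with block, and MMP11 in 4 intact hearts and 1 heart with block. All 3 thus entered the test through the intact group, in which they were higher.

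Among 9 tested genes of collagen cross-linking other than the family, such as PLOD1, PLOD2 and TGM2, the groups overlapped in all 9, with a median log2 fold change of -0.04. Among 9 substrates, 8 had a positive log2 fold change and the median was 0.24, while the median shift was -0.08 in animal 2 and 0.55 in animal 8. Fibronectin, FN1, gave 1967 and 4327 in block animals 2 and 8, against 1137, 1780, 1407 and 635 in intact animals 11, 12, 13 and 14 (log2 fold change 1.33, limma adjusted p = 0.472). Among 11 regulators of metalloproteinases the median was 0.33, with median shifts of -0.12 in animal 2 and 0.80 in animal 8. CD44, a hyaluronan receptor that can hold MMP9 at the cell surface, gave 196 and 465 with block, against 117, 187, 156 and 107 in intact hearts (log2 fold change 1.12, limma adjusted p = 0.473). In FN1 and CD44 animal 8 was higher than animal 2. The 11 ADAM and ADAMTS proteases overlapped between groups, with a median of -0.04.

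**Figure D4:**
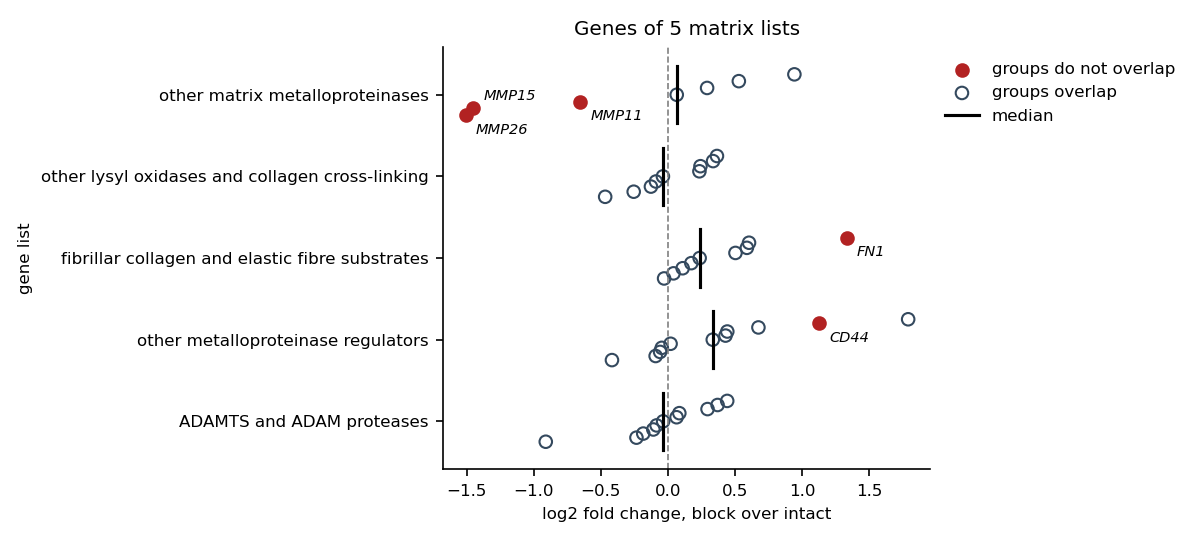
Log2 fold change of block over intact (x axis) for the 47 tested genes of 5 matrix lists (y axis), 1 point a gene by its brightest tested probe set, with a bar at the list's median. Filled points are the 5 genes whose groups do not overlap: MMP11, MMP15 and MMP26 are lower with block and FN1 and CD44 higher, against 8.61% of all tested probe sets above and 9.48% below.

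The genes whose pattern was most like that of 1 member per role were taken by Pearson's r of log2 scaled signal over the 6 arrays, among 5433 genes with a mean log2 signal of at least 7. For MMP2 they were HTRA3 (r = 0.976), IFI16 (r = 0.974) and SOX7 (r = 0.972). For TIMP1 they included FNDC3A (r = 0.995) and GPM6B (r = 0.989). For LOX they were MYADM (r = 0.978), APRIN (r = 0.975) and APEX1 (r = 0.973). Over 6 arrays such values only describe these hearts, and 56, 93 and 25 genes reached an r of 0.9 with MMP2, TIMP1 and LOX. MYADM, a myeloid-associated membrane protein, gave 602 and 677 in block animals 2 and 8, against 354 to 519 in intact hearts.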

How the data were processed

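Total RNA (100 ng) from at least 50 mg of left ventricular free wall was copied with a 3′ in vitro transcription kit and hybridised, 1 heart an array, to a rhesus macaque array designed for another macaque species. The authors made the deposited signal intensity and detection call of each probe set with MAS5. Calls rest on the authors' detection p-value. The deposited log2 normalized values, an alternative, had the array's median and the probe set's median over intact arrays subtracted. Here 158 control probe sets were left out and signals were scaled to a common 2% trimmed mean (deposited trimmed means 54.6 and 73.5 with block, 75.1 to 88.2 in intact hearts; Present calls 36.0% to 39.7%). Log2 signals were tested with limma 3.58.1 in R 4.3.3 (variance trend, 2-sided), after the script was tested on simulated data, and single values with exact permutation tests. Replicates were separate animals. A gene was represented by its probe set with the highest mean log2 signal. All members were named, and from each list up to 4 genes with the lowest unadjusted p among those without overlap, COL1A1, and 3 genes most like MMP2, TIMP1 and LOX. Members and lists were chosen with earlier results of these data known. Of the per-sample columns, 6 were not used. Alternatives changed scaling, offset, filter, variance model, gene naming and animals. The number of arrays limits the precision. No probe or gene sequence was used here. A gene of the matrix lists and a gene of the pattern search are not reported here.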

Additional observations from a re-analysis of the deposited data

Results flagged for a closer look

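Among the 24 probe sets, 2 had 1 intact heart far from the other 3, with a gap to its neighbour that took up nearly the whole range of the group. The gap was taken on scaled signals without logs, which widens it where 1 value is high. Chance flags about 1 in 20 for normally distributed values, so with 24 groups checked a flag is expected by chance. Signals near background need not follow that rate. In a TIMP3 probe set, the one ranked 3 by brightness, intact animal 12 gave 392 against 305 to 309 in the other intact hearts, and the gap was 0.950 of the range. In the dimmest MMP14 probe set, Absent on all arrays, intact animal 13 gave 16.4 against 1.33 to 3.74 in the others, and the gap was 0.840 of the range.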

How the results depend on the processing

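No member probe set and no gene of the matrix lists passed the adjusted test under any alternative run, with the array's total at 5 probe sets. That total was 0 with quantile normalization, with the authors' normalized values, with eBayes without a trend and with array weights, 8 with an offset of 32, and 0 to 4 with 1 animal left out. LOX kept its direction throughout, between 0.47 with the offset and 1.15 without intact animal 12. The difference of LOX from COL1A1 was 0.86 to 1.15 with 1 animal left out and 0.50 with the offset (exact permutation p = 0.133). That of TIMP1 from MMP2 ran between -0.078 and 0.24 with 1 animal left out. Without 1 animal the log2 fold change ran between -0.66 and 0.35 for MMP2, -0.53 and 0.32 for TIMP1, -0.60 and 0.45 for TIMP2, -0.48 and 0.76 for LOXL1 and -0.35 and 0.20 for LOXL2, the positive end without block animal 2 in each. TIMP3 changed sign as the mean of its probe sets (0.0055) and, in a comparison chosen after seeing the data, by the probe sets ranked 2 and 3 in brightness (0.21 and 0.085). As the log2 ratio of arithmetic means of deposited signals, TIMP4 (-0.12) and LOXL1 (-0.025) changed sign. Their ratios of arithmetic means were 0.919 and 0.983 deposited and 1.17 and 1.18 scaled, so the scaling, not the kind of mean, turned the sign. Over all 13 probe sets, also chosen after seeing the data, the median shift was -0.34 in animal 2 and 0.32 in animal 8. No paired analysis was possible because the groups share no animal numbers. Signals near background limit MMP9, MMP14 and part of LOX.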
